A study of Mus musculus with 12 samples.

Results

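The data described here are the changes in liver mRNA between fasting and refeeding that were shared by mice with and without lipin 1. All 22456 genes in the expression table were considered, and the 11507 with a mean of at least 0.5 RPKM (reads normalized to transcript length and library size) over the 12 libraries were tested. Each gene was compared once, between the 6 refed and the 6 fasted libraries, with genotype as a covariate. Such a fit can call a gene that moved mainly in 1 genotype, so a call alone does not show a change in both. The 4 groups behind that comparison each held 3 BALB/cByJ mice: *Lpin1*+/+ mice fasted for 16 hours, *Lpin1*+/+ mice refed for 5 hours after a 16-hour fast, and *Lpin1*-/- mice in the same 2 states. The *Lpin1*-/- mice carried the fatty liver dystrophy mutation in every tissue, so they lacked lipin 1 in adipose tissue and muscle as well as in liver, and the *Lpin1*+/+ mice were wild-type littermates. All mice were adult males housed singly during the fast. Fasted livers were collected when the fast ended and refed livers 5 hours later, and feeding state and time of day cannot be told apart in this design. Whole liver was sequenced, so fewer cells of a type and less RNA per cell cannot be told apart either.

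A meal after a fast raises insulin and lowers glucagon and glucocorticoid signaling in liver. Insulin, acting through AKT, keeps FoxO transcription factors out of the nucleus, which lowers fasting genes such as *Igfbp1*, and activates SREBP-1c and mTORC1, which raise glucose use, lipid synthesis, and the building of ribosomes and proteins. Much of the protein that the fed liver makes is secreted, and its folding in the ER (endoplasmic reticulum) depends on chaperones controlled by the transcription factors ATF6 and XBP1. Lipin 1 is a phosphatidate phosphatase of triglyceride synthesis that also acts in the nucleus with PPARα and PGC-1α on genes of fatty acid oxidation.

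Relative read depth, estimated from the spacing of low RPKM values, differed by at most 1.336-fold between libraries. *Lpin1* itself read 0.726 to 21.96 RPKM in the 6 *Lpin1*+/+ libraries and 0.00573 to 0.0597 RPKM in the 6 *Lpin1*-/- libraries, with no overlap. The library with the largest mean distance to all others in expression was fasted *Lpin1*-/- replicate 1 (107.5), which lay closest to a library of its own group. Across all genes, 2 libraries lay closest to a library of another group: fasted *Lpin1*+/+ replicate 1, which was closest to a refed *Lpin1*-/- library, and refed *Lpin1*+/+ replicate 2, which was closest to a fasted *Lpin1*+/+ library. Both margins were small, at distances of 66.4 and 82.5, against 67.2 and 82.6 to the nearest library of their own group. Counts for a gene list are therefore also given without these 2 libraries where that moved them by over 1.5 times. The defining hepatocyte markers were high in every library, with a summed level of 48273 to 96504 RPKM over 11 genes, and none of the 11 was called different between the feeding states. The 12 Kupffer cell and macrophage markers summed to 226 to 1666 RPKM in fasted and 132 to 1909 RPKM in refed liver. The highest sums were those of fasted *Lpin1*-/- replicate 1 and refed *Lpin1*+/+ replicate 2. Of these 12 markers, 1 was called lower after refeeding (*Clec4f*), but without refed *Lpin1*+/+ replicate 2 the number was 8, and without both libraries that lay near another group it was also 8. Without both, 5 of 6 tested lymphocyte markers and 2 of 7 tested neutrophil markers were called lower as well, against 3.5% of all genes in that fit. The lymphocyte sums were low, at 3.80 to 14.8 RPKM in fasted and 1.62 to 27.6 RPKM in refed liver. That fit left out the refed library with the highest immune marker sums but kept the fasted library with the highest, fasted *Lpin1*-/- replicate 1. Its lower calls of immune markers therefore do not by themselves show a fall on refeeding. Pancreatic acinar and adipocyte markers were at or near 0, with sums of at most 2.03 and 0.321 RPKM in any library.

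Refeeding raised far more genes than it lowered on the deposited scale. At a Benjamini-Hochberg adjusted p under 0.05 in limma, 1495 genes (13%) were called, of which 1382 (12%) were higher and 113 (0.982%) lower after refeeding. The unadjusted p was under 0.05 for 3559 genes. The balance of higher and lower calls depended on how the libraries were scaled. RPKM is a share of each library's reads, and after each library was divided by its median ratio to a common reference, 566 of 11485 genes (4.93%) were called, with 335 higher (2.92%) and 231 lower (2.01%). The share of calls that were higher went from 92.4% to 59.2%, and the median over all genes, on the log2 scale, went from 0.21 to −0.02. A gene called higher on the deposited scale is therefore read here against that median of 0.21, and the rescaled call is given beside each group. On both scales together, 445 genes (3.87%) were called in the same direction, with 335 higher and 110 lower.

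The plot of calls under each setting shows how far these numbers moved. Without the 2 libraries that lay near another group, 3392 of 11307 genes (30%) were called on the deposited scale, 2996 higher (26.5%) and 396 lower (3.5%), and 2046 on the rescaled one, 1117 higher and 929 lower. These calls held 1470 of the 1495 genes in the same direction. Both libraries were left out because the values tested here lay nearest to a library of the other feeding state. That choice favors more calls, so this fit and its overlap are no independent check of the 1495. Leaving out single libraries gave between 621 genes, without refed *Lpin1*-/- replicate 2, and 3039 genes, without fasted *Lpin1*+/+ replicate 1. A set of 361 genes was called in the same direction on both scales and in all 12 fits that each left out 1 library, with 313 higher and 48 lower.

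**Figure D1:**
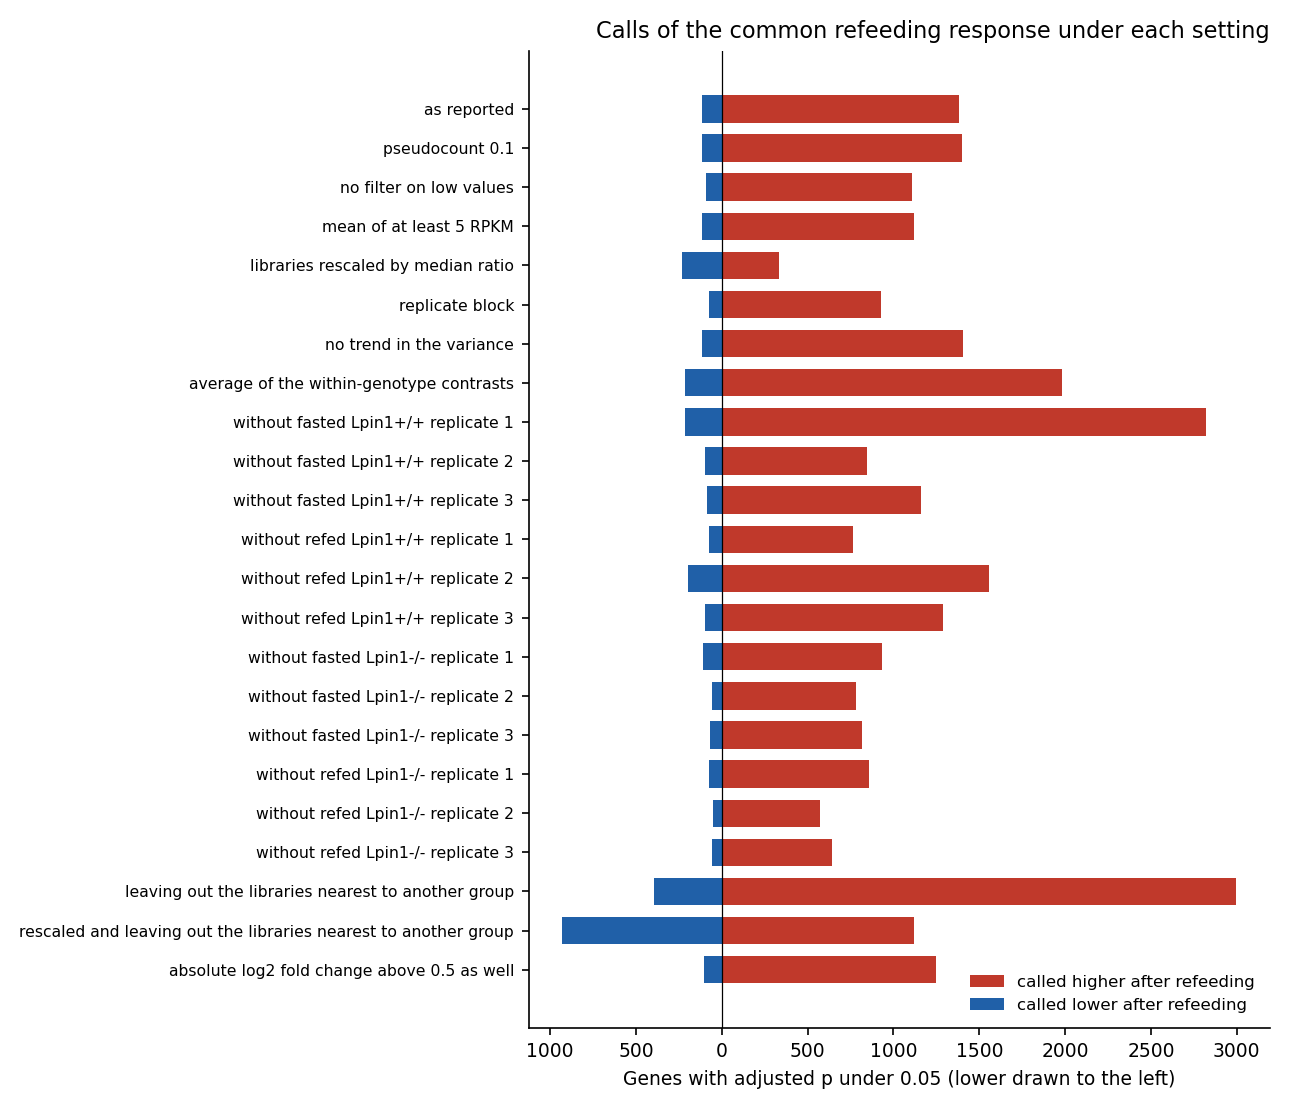
Number of genes called higher (red, to the right) and lower (blue, to the left) after refeeding in the fit with genotype as a covariate, under each setting named on the vertical axis. Higher calls exceed lower calls in every setting, from 1382 against 113 as reported to 335 against 231 after rescaling and 1117 against 929 after rescaling without the 2 libraries that lay near another group.

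The genes raised most in both genotypes included secreted factors and genes of protein folding. The 7 genes described here were among the called genes with the largest change whose 3 refed libraries all lay above the 3 fasted libraries of the same genotype, in both genotypes. *Angptl8* (GRCm38, chromosome 9, 21835510 to 21837347), an insulin-induced secreted inhibitor of lipoprotein lipase, read 11.6, 55.2, and 47.0 RPKM in fasted and 203.2, 193.9, and 316.8 RPKM in refed *Lpin1*+/+ liver. In *Lpin1*-/- liver *Angptl8* read 20.2, 12.9, and 9.50 RPKM fasted and 112.8, 471.2, and 798 RPKM refed. Every refed library lay above every fasted one, and the log2 fold change common to both genotypes was 3.72 ± 0.53 (SE, adjusted p = 0.00192), the largest among these genes.

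*Hyou1* (chromosome 9, 44379490 to 44392369), an ER chaperone of the HSP70 type, changed by nearly the same amount in both genotypes. Its RPKM was 14.8, 14.2, and 16.0 in fasted and 126.4, 70.3, and 172.2 in refed *Lpin1*+/+ liver. The *Lpin1*-/- values were 5.72, 9.71, and 6.74 fasted and 48.9, 64.2, and 61.4 refed. The log2 fold change was 2.86 in *Lpin1*+/+ and 2.84 in *Lpin1*-/- liver, and 2.85 ± 0.20 in common (adjusted p = 4.57e-05). Other ER genes in this group were *Creld2*, at 14.2 to 34.6 RPKM (median 25.7) in the 6 fasted and 41.1 to 602.9 RPKM (median 161.2) in the 6 refed libraries, and *Manf*, which encodes a secreted factor induced by ER stress, at 38.0 to 141.0 RPKM fasted and 149.0 to 734.5 RPKM refed. For both, the lowest refed value lay above the highest fasted value. Their log2 fold changes were 2.89 ± 0.44 (adjusted p = 0.00274) and 2.38 ± 0.37 (adjusted p = 0.00284).

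The remaining 3 genes were of other kinds. *Tsku*, which encodes the secreted proteoglycan tsukushi, had a median of 8.66 RPKM in fasted and 126.2 RPKM in refed liver, with no overlap, and rose by 3.20 ± 0.40 (adjusted p = 0.00107). *Onecut1*, which encodes the liver transcription factor HNF6, had medians of 1.82 and 12.8 RPKM, with its highest value of 65.6 RPKM in refed *Lpin1*+/+ replicate 1, and rose by 2.49 ± 0.43 (adjusted p = 0.00504). *Hdhd3*, of the haloacid dehalogenase family, rose by 3.07 ± 0.55 (adjusted p = 0.00638) but unequally: by 1.42 in *Lpin1*+/+ and by 4.71 in *Lpin1*-/- liver, where fasted values were 1.97 to 3.19 RPKM against 18.7 to 70.2 RPKM in fasted *Lpin1*+/+ liver. The test of that genotype difference gave 3.28 (adjusted p = 0.0334).

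**Figure D2:**
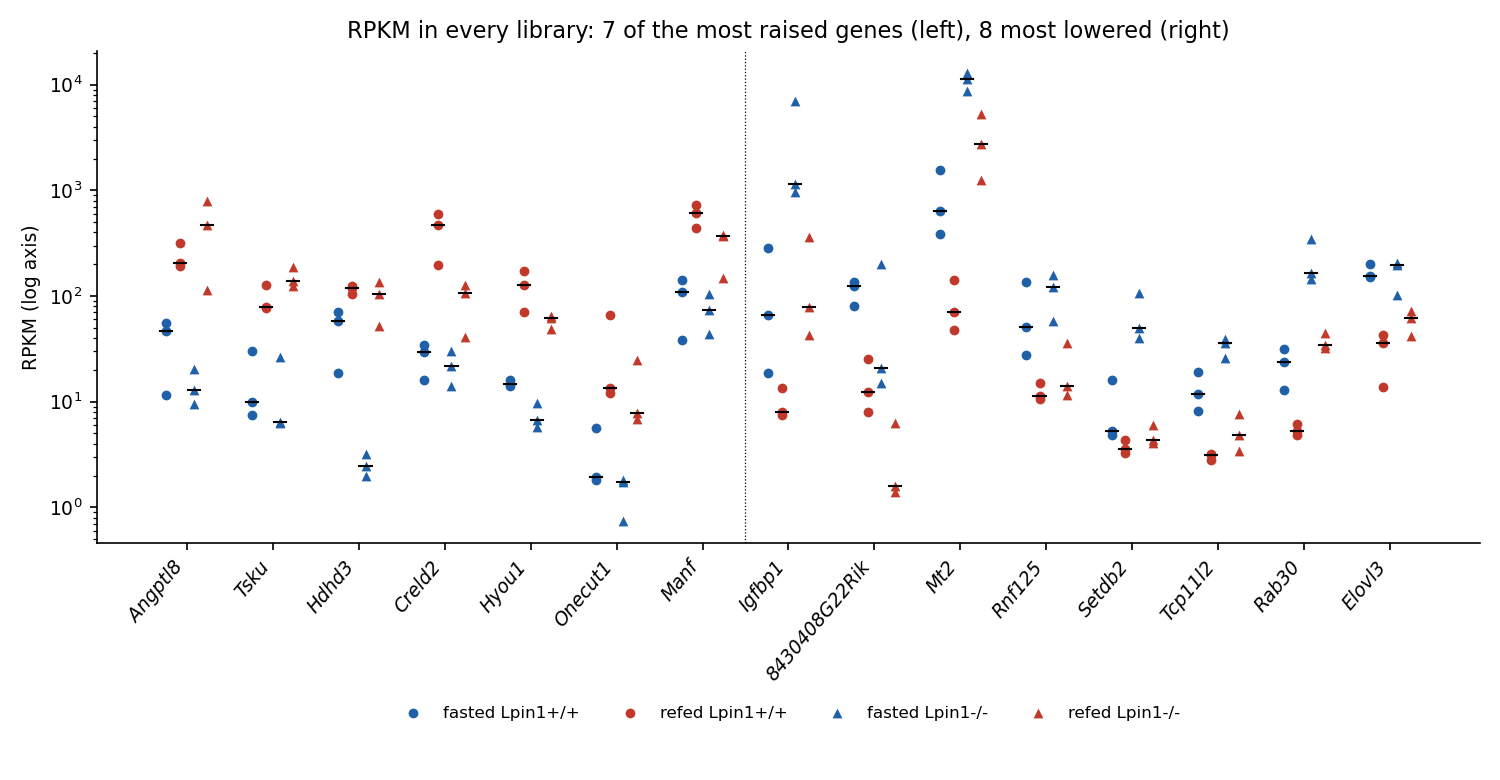
RPKM (log axis) of each of the 12 libraries for 7 of the genes raised most (left of the dotted line) and the 8 genes lowered most (right) among called genes whose feeding groups did not overlap in either genotype. Points are single libraries, circles for *Lpin1*+/+ and triangles for *Lpin1*-/- (blue fasted, red refed), and bars are medians of 3; *Hyou1* shows the tight separation described in the text, whereas *Igfbp1* and *Mt2* separate within each genotype at very different levels.

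The genes lowered most were headed by *Igfbp1* (chromosome 11, 7197782 to 7202546), an insulin-repressed FoxO target that encodes an IGF-binding protein. Its RPKM was 282.7, 65.6, and 18.8 in fasted and 13.5, 7.45, and 7.91 in refed *Lpin1*+/+ liver. Fasted *Lpin1*-/- liver had 961.1, 1139, and 6961 and refed *Lpin1*-/- liver 363.8, 42.6, and 78.5. The groups did not overlap within a genotype, but the levels differed between genotypes, so that all 3 refed *Lpin1*-/- values lay above the lowest fasted *Lpin1*+/+ value, and the common log2 fold change was −3.50 ± 0.72 (adjusted p = 0.0111). *8430408G22Rik*, which RefSeq gives as an older name of the FoxO target *Depp1*, read 123.5, 80.3, and 134.9 RPKM in fasted and 12.3, 7.97, and 25.5 RPKM in refed *Lpin1*+/+ liver. In *Lpin1*-/- liver it read 15.1, 20.8, and 202.3 RPKM fasted and 6.26, 1.41, and 1.58 RPKM refed. It fell by 3.23 (SE 0.56, adjusted p = 0.0050) on the log2 scale.

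Of the other 6, *Mt2* encodes a zinc-binding metallothionein, *Rnf125* a ubiquitin ligase, *Setdb2* a histone methyltransferase, *Rab30* a Golgi GTPase, and *Elovl3* an elongase of very long fatty acids. *Mt2* fell from 389 to 1555 RPKM to 48.1 to 141.2 RPKM in *Lpin1*+/+ liver, and *Lpin1*-/- values were at least 1246 RPKM in both states, falling from 8722 or more to 5273 or less. The common log2 fold change of *Mt2* was −2.62 ± 0.44 (adjusted p = 0.00403). *Tcp11l2* (8.10 to 39.0 RPKM fasted, 2.79 to 7.59 RPKM refed) and *Elovl3* (103.1 to 205.8 RPKM fasted, 13.9 to 72.2 RPKM refed) had no overlap among the 12 libraries. Their log2 fold changes were −2.12 ± 0.24 (adjusted p = 0.000754) and −2.01 ± 0.31 (adjusted p = 0.00287). *Rnf125* (−2.30), *Setdb2* (−2.13), and *Rab30* (−2.11) separated only within each genotype. *Setdb2* had −0.86 in *Lpin1*+/+ and −3.40 in *Lpin1*-/- liver (interaction adjusted p = 0.0631). All 15 of these genes were also called after rescaling and in each fit that left out 1 library.

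Many genes for folding and quality control in the ER were called higher. Of 36 tested members of the list, 23 were called higher (63.9%) and 0 lower, against 12% and 0.982% of all genes, and the median log2 fold change was 0.87. After rescaling 13 were called higher and 0 lower with a median of 0.58. Without the 2 libraries near another group the number was 22 (61.1%), below the share of the heat shock list (78.3%) and of the ribosome biogenesis list (70.8%) in that fit, and leaving out 1 library gave 16 to 24. *Hspa5*, which encodes BiP, the main HSP70 chaperone of the ER, read 183.5, 305.5, and 274.0 RPKM in fasted and 1336, 955.9, and 1693 RPKM in refed *Lpin1*+/+ liver. In *Lpin1*-/- liver it read 321.6, 308.1, and 302.8 RPKM fasted and 520.9, 854.2, and 801.4 RPKM refed. It rose by 1.78 ± 0.26 (adjusted p = 0.00194), by 2.38 in *Lpin1*+/+ and 1.19 in *Lpin1*-/- liver, a difference that did not pass the interaction test (adjusted p = 0.156). *Xbp1*, which encodes a transcription factor of the unfolded protein response, rose by 1.60, *Pdia4*, a protein disulfide isomerase, by 1.80, and *Syvn1*, a ubiquitin ligase of ER-associated degradation, by 1.92.

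The group was not uniform between genotypes. Its median was 1.16 in *Lpin1*+/+ and 0.59 in *Lpin1*-/- liver, where the medians of all genes were 0.19 and 0.25, yet 0 of its members passed the interaction test. *Sdf2l1*, a cofactor of BiP, read 303.7, 196.7, and 288.1 RPKM in refed *Lpin1*+/+ and 24.3, 99.1, and 88.0 RPKM in refed *Lpin1*-/- liver, and its log2 fold changes were 3.77 and 1.61. *Derl3*, a factor of ER-associated degradation, was not called (1.76, adjusted p = 0.111), with 66.3, 6.53, and 82.6 RPKM in refed *Lpin1*+/+ liver but 0.671 to 1.16 RPKM in refed *Lpin1*-/- liver. *Herpud1*, a further member, had a negative value (−0.73) and was not called.

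**Figure D3:**
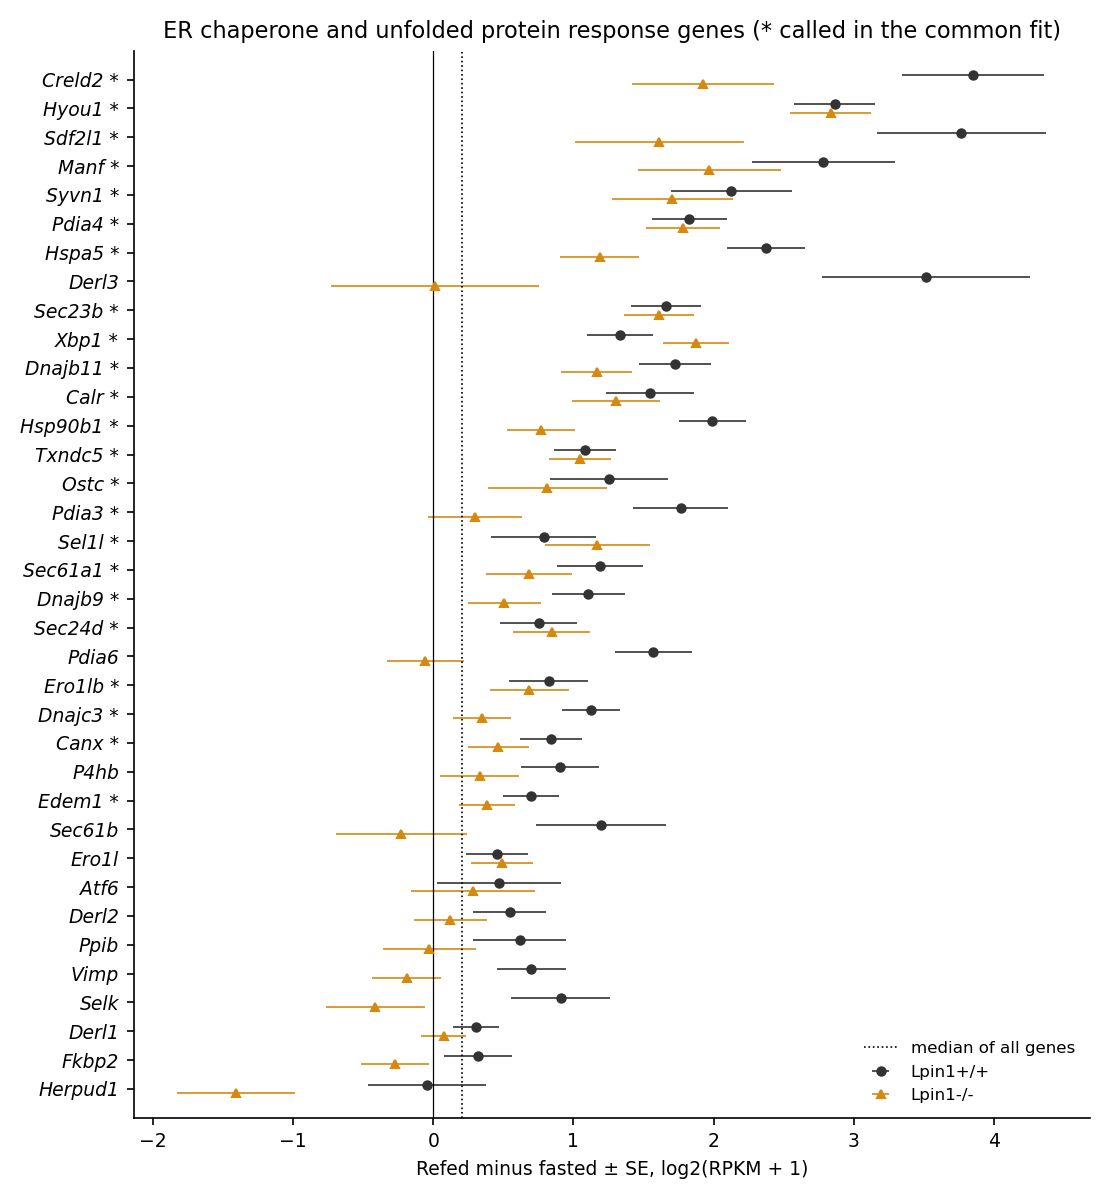
Log2 fold change of RPKM + 1 on refeeding (± SE) for each of the 36 tested ER chaperone and unfolded protein response genes, in *Lpin1*+/+ (circles) and *Lpin1*-/- liver (triangles), ordered by the common change, with an asterisk for the 23 called genes. The dotted line is the median of all genes (0.21); most *Lpin1*+/+ points lie to its right, and *Hyou1*, *Pdia4*, and *Sec23b* have nearly the same value in both genotypes.

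Some of these genes share a promoter sequence that few other promoters hold. The ER stress response element, CCAAT and CCACG with 9 bases between them, was searched on both strands of the 300 bases around each start site (250 before, 50 after) in RefSeq promoters of GRCm38.p6. It was 1 of 5 motifs searched. It was found at 37 of 27025 promoters (0.137%), at 15 of 8752 tested genes that had a promoter entry (0.171%), at 9 of 1108 called higher (0.812%), and at 0 of 83 called lower. Of the 36 ER genes, 26 had an entry and 9 of these held the element (34.6%), 7 of which were called higher. The 10 sites in the 9 genes are shown from largest to smallest common change, read in the direction of the element, with its fixed letters in capitals and 12 bases on each side.
*Creld2* (chr15:88819520-88819538): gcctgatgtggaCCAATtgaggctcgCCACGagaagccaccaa
*Syvn1* (chr19:6046532-6046550): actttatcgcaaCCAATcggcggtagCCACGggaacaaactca
*Hspa5* (chr2:34772025-34772043): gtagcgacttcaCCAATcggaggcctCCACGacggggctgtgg
*Derl3* (chr10:75893242-75893260): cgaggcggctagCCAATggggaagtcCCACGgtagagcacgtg
*Calr* (chr8:84847075-84847093): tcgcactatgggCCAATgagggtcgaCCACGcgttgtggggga
*Hsp90b1* (chr10:86705638-86705656): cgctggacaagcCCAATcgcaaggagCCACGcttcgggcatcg
*Hsp90b1* (chr10:86705533-86705551): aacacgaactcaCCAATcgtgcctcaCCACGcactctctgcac
*Pdia6* (chr12:17266491-17266509): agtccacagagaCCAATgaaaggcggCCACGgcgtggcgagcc
*Dnajc3* (chr14:118937827-118937845): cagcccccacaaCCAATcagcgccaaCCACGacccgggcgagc
*Canx* (chr11:50325800-50325818): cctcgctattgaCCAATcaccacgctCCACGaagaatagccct

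The first 3 genes rose by 2.89, 1.92, and 1.78 and the last by 0.65, and *Derl3* and *Pdia6* were the 2 that were not called (adjusted p = 0.111 and 0.106). *Hsp90b1*, the ER form of HSP90, held the element in both orientations. The site of *Creld2* is also that of *Alg12*, a mannosyltransferase gene of ER glycosylation transcribed in the opposite direction from the same stretch of chromosome 15. *Alg12*, named here because of that shared site, was not on the list and rose by 1.35 (adjusted p = 0.000736). Outside the list 6 tested genes held the element and 2 were called higher, *Alg12* and *Hnrnpa3*. The promoter of *Hspa5* is shown whole, with the same letters in capitals 65 bases before the start site.
*Hspa5* promoter (chr2:34771840-34772139): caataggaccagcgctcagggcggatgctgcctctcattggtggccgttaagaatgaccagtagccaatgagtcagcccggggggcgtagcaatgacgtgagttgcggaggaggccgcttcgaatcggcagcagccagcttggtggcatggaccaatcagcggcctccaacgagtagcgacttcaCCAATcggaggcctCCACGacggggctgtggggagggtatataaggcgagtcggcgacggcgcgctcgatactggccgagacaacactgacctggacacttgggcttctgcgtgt

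A match of letters is a description of the sequence and not a site of binding, and 10 of the 36 ER genes, *Hyou1* and *Manf* among them, were not searched.

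Of 23 tested heat shock protein genes, most of them of cytosolic chaperones, 13 were called higher and 0 lower, against 12% and 0.982% of all genes, and 6 were called after rescaling, against 2.92%. The median was 0.71 as deposited and 0.47 after rescaling. *Chordc1*, an HSP90 cofactor, had 3.34 to 13.0 RPKM in fasted and 14.2 to 38.1 RPKM in refed liver, with no overlap, and rose by 1.79 ± 0.28 (adjusted p = 0.00303). *Hsph1*, an HSP110 chaperone, rose by 1.69 ± 0.36 (adjusted p = 0.0126), and *Stip1*, which links HSP70 to HSP90, by 1.49 ± 0.24 (adjusted p = 0.00376). In refed *Lpin1*+/+ replicate 2 all 3 were lower than in the other 2 libraries of that group, for *Stip1* at 38.2 against 113.9 and 76.8 RPKM. Mitochondrial and constitutive members such as *Hspd1* (0.46) and *Hsp90ab1* (0.52) were not called. Leaving out 1 library gave 6 to 14 calls in this list, and leaving out the 2 libraries near another group gave 18, against 26.5% of all genes called higher in that fit.

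Of 48 tested ribosome biogenesis genes 25 were called higher and 0 lower, against 12% and 0.982% of all genes, with a median of 0.56. After rescaling 7 were called, against 2.92% of all genes, with a median of 0.31. *Nop56*, a core protein of box C/D snoRNPs that guide rRNA methylation, read 6.94, 6.61, and 6.30 RPKM in fasted and 18.1, 14.8, and 18.8 RPKM in refed *Lpin1*+/+ liver. It read, in *Lpin1*-/- liver, 9.37, 6.03, and 7.58 RPKM fasted and 24.2, 26.3, and 24.4 RPKM refed. It rose by 1.43 ± 0.14 (adjusted p = 0.000564), and with *Hyou1* and *Gtf2f1* it had the smallest p when a change was required in both genotypes. *Nop2*, an rRNA methyltransferase (1.53 ± 0.22, adjusted p = 0.00192), and *Bysl*, a factor of the small subunit (1.30 ± 0.17, adjusted p = 0.00129), likewise had no overlap among the 12 libraries. *Myc*, a regulator of this program, was not called (−0.44). Leaving out 1 library gave 16 to 33 calls in the list, and leaving out the 2 libraries near another group gave 34, against 26.5% of all genes called higher in that fit.

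None of the 77 cytosolic ribosomal protein genes was called on either scale, and their median was 0.00 on the deposited and −0.28 on the rescaled scale. In separate genotypes the median was 0.28 in *Lpin1*+/+ and −0.28 in *Lpin1*-/- liver. Translation factors lay between these groups, with 14 of 38 called higher (36.8%) and 0 lower (median 0.49), against 12% and 0.982% of all genes. After rescaling only 2 of the 38 were called higher and 1 lower, against 2.92% and 2.01% of all genes. Without the 2 libraries near another group 24 were called higher and 1 lower, against 26.5% and 3.5% of all genes in that fit. *Eif2b4* and *Eif2b3*, subunits of the exchange factor that recharges eIF2, rose by 1.21 ± 0.17 (adjusted p = 0.00194) and 0.95 ± 0.15 (adjusted p = 0.00324), on both scales. *Gspt1*, a release factor, rose by 0.96 ± 0.21 (adjusted p = 0.0148) and was not called after rescaling (adjusted p = 0.0512).

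Among 36 SR protein and hnRNP genes, which encode regulators of splicing, 10 were called higher (27.8%) and 0 lower (median 0.47), against 12% and 0.982% of all genes. After rescaling 5 were called higher and 2 lower, against 2.92% and 2.01%. The number was 20 higher (55.6%) without the 2 libraries near another group, against 26.5% of all genes in that fit. *Srsf6* had 21.3 to 31.3 RPKM in fasted and 48.1 to 59.1 RPKM in refed liver, and *Srsf2* 31.7 to 47.0 and 76.8 to 92.0 RPKM, with no overlap in either. They rose by 1.07 ± 0.13 (adjusted p = 0.000888) and 0.99 ± 0.12 (adjusted p = 0.000906). *Srsf1* rose by 1.42 ± 0.28 (adjusted p = 0.00911), by 0.72 in *Lpin1*+/+ and 2.13 in *Lpin1*-/- liver (interaction adjusted p = 0.106). The general transcription factor gene *Gtf2f1*, a subunit of TFIIF, read 7.49 to 9.86 RPKM in fasted and 19.8 to 27.1 RPKM in refed liver and rose by 1.28 ± 0.12 (adjusted p = 0.000564). Of 31 proteasome genes 4 were called higher (12.9%, median 0.33), a share near the 12% of all genes. After rescaling 0 were (median 0.04), and without the 2 libraries near another group 8 were (25.8%), near the 26.5% of all genes in that fit.

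**Figure D4:**
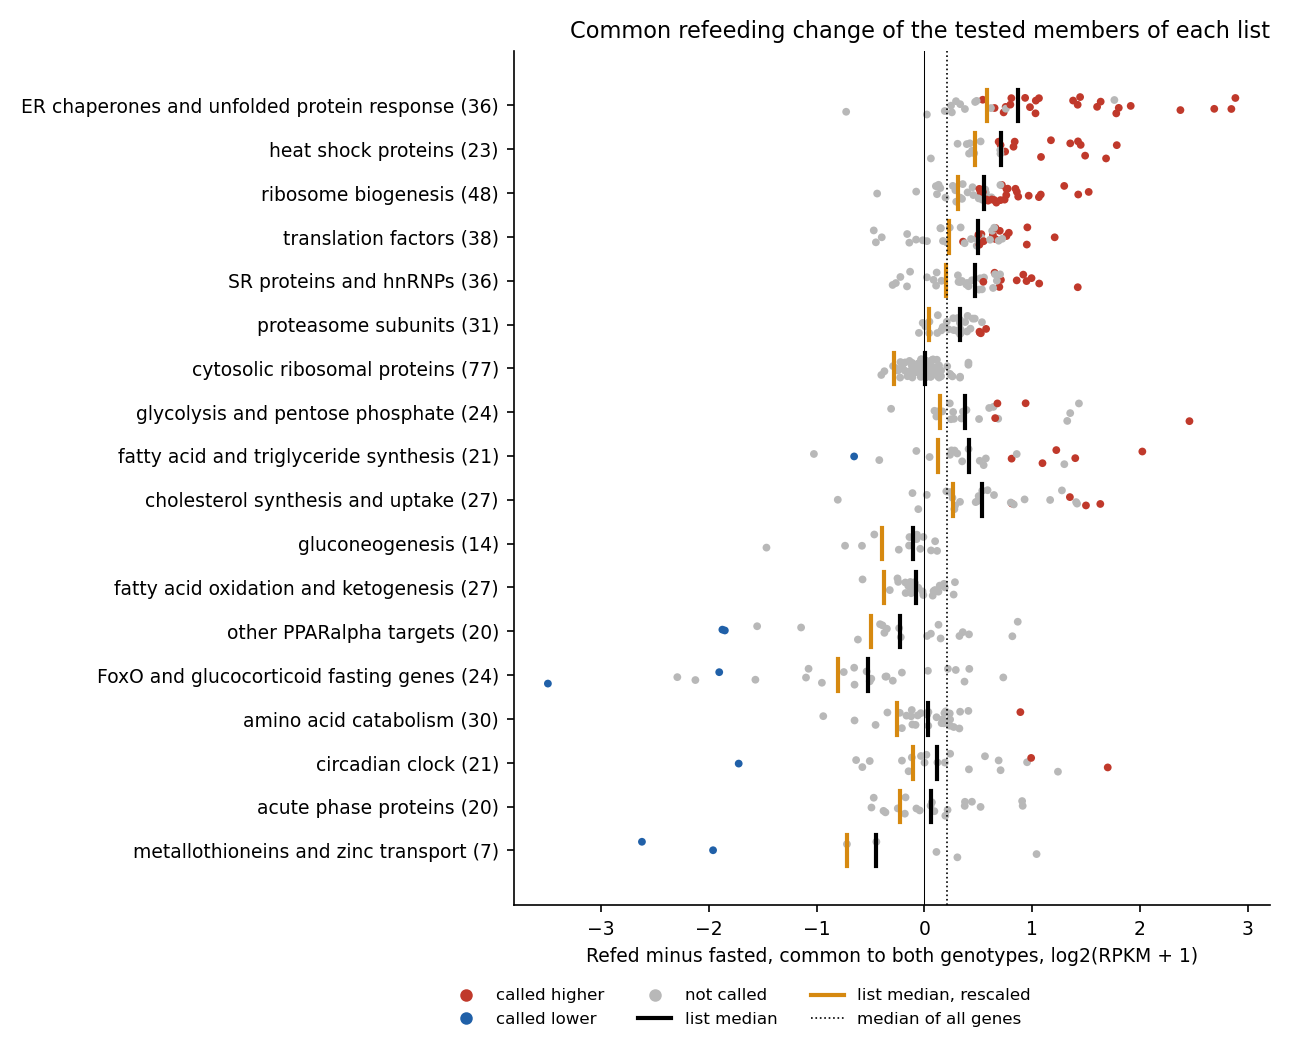
Common log2 fold change of RPKM + 1 on refeeding for each tested member (points) of 18 gene lists, with the number tested in parentheses, red for called higher, blue for called lower, and gray for not called. Black bars are list medians on the deposited scale, orange bars medians after rescaling, and the dotted line the median of all genes (0.21); the ER, heat shock, and ribosome biogenesis lists lie to the right of it, and the fasting lists to the left.

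Of 24 glycolysis and pentose phosphate genes 4 were called higher and 0 lower (median 0.37), against 12% and 0.982% of all genes, and 2, *Aldoa* among them, were called after rescaling. *Aldoa*, an aldolase, rose by 0.94 ± 0.16 (adjusted p = 0.00403). Without fasted *Lpin1*+/+ replicate 1 the list had 12 calls, and without the 2 libraries near another group 13 (54.2%, against 26.5% of all genes called higher in that fit). *Pklr*, the liver pyruvate kinase gene, was not called (1.33), with 57.1, 20.7, and 27.4 RPKM in fasted and 35.9, 23.7, and 39.8 RPKM in refed *Lpin1*+/+ liver, against 6.30 to 9.14 RPKM and 29.7 to 90.5 RPKM in *Lpin1*-/- liver.

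Of 21 genes of fatty acid and triglyceride synthesis 5 were called higher and 1 lower (median 0.41), against 12% and 0.982% of all genes. After rescaling 3 were called higher and 2 lower, against 2.92% and 2.01%. *Mid1ip1*, an activator of acetyl-CoA carboxylase, had 4.89 to 11.4 RPKM in fasted and 20.1 to 75.1 RPKM in refed liver and rose by 2.02 ± 0.34 (adjusted p = 0.00425). *Fasn*, the fatty acid synthase gene, read 10.3, 3.31, and 4.50 RPKM in fasted and 19.8, 13.6, and 18.9 RPKM in refed *Lpin1*+/+ liver. In *Lpin1*-/- liver it read 11.9, 21.2, and 6.86 RPKM fasted and 27.5, 43.4, and 25.7 RPKM refed, and the common rise was 1.40 ± 0.28 (adjusted p = 0.0103), nearly equal in the 2 genotypes (1.5 and 1.30). *Acaca*, the acetyl-CoA carboxylase gene, rose by 1.22 ± 0.34 (adjusted p = 0.0343), but lost the call in 9 of the 12 fits that left out 1 library (adjusted p up to 0.0902). Its change was 0.29 in *Lpin1*+/+ and 2.16 in *Lpin1*-/- liver (interaction adjusted p = 0.0666). *Srebf1*, the gene of the regulator SREBP-1, was not called (0.51 ± 0.39, adjusted p = 0.404), with fasted *Lpin1*-/- values of 11.4 to 48.2 RPKM.

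Some cholesterol genes changed differently in the 2 genotypes. Of 27 tested members of the synthesis and uptake list 4 were called higher (14.8%, median 0.54), near the 12% of all genes. That number depended on single libraries, and leaving out 1 library gave 2 to 9 higher calls in the list. The 9 came without fasted *Lpin1*-/- replicate 1, a fit in which 932 of all genes were called higher, against 1382 with that library. *Lpin1*+/+ liver had a median of 1.52 against −0.15 in *Lpin1*-/- liver. Of the members 8 passed the interaction test and 19 did not, against 1.28% of all genes that passed. After rescaling 1 member was called higher in common, against 2.92% of all genes. *Insig1*, an SREBP target that holds SREBP in the ER, rose from 18.2 to 36 RPKM to 58.0 to 98.2 RPKM in *Lpin1*+/+ liver and fell from 56.4 to 172.2 RPKM to 9.13 to 11.7 RPKM in *Lpin1*-/- liver (interaction −4.81, adjusted p = 0.00332). *Hmgcs1*, the synthase at the head of the pathway, was the only member called on both scales, at 1.35 ± 0.26 (adjusted p = 0.00838), with changes of 1.85 and 0.85 (interaction adjusted p = 0.268). *Mvd*, which encodes mevalonate diphosphate decarboxylase, was called in common (1.63), although its change in *Lpin1*-/- liver was 0.49 and it passed the interaction test (adjusted p = 0.0190).

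Among 27 genes of fatty acid oxidation and ketogenesis 0 were called on either scale. Of all genes 0.982% were called lower as deposited and 2.01% after rescaling, so lists of this size would hold few lower calls at the share of all genes. The list had a median of −0.08 as deposited and −0.37 after rescaling, and without the 2 libraries near another group 1 member was called, higher. *Cpt1a*, the gate of mitochondrial oxidation, had −0.25 ± 0.35 (adjusted p = 0.672), with 236.8, 56.3, and 92.5 RPKM in fasted and 71.1, 68.5, and 92.6 RPKM in refed *Lpin1*+/+ liver. Among 14 genes of gluconeogenesis 0 were called on either scale (median −0.11). *G6pc*, the glucose-6-phosphatase gene, was nearest (−1.47 ± 0.50, adjusted p = 0.0723): in *Lpin1*+/+ liver it read 479.6, 186.9, and 98.1 RPKM fasted and 80.6, 22.3, and 60.7 RPKM refed, with no overlap, while *Lpin1*-/- values overlapped. *Pck1* had −0.74 ± 0.51 (adjusted p = 0.356), and values from 548.6 to 2802 RPKM within the fasted *Lpin1*+/+ group alone.

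A few single genes of the fasting programs fell. Of 24 FoxO and glucocorticoid fasting genes 2 were called lower (8.33%, against 0.982% of all genes) and 0 higher (median −0.52), *Igfbp1* and *Txnip*. The same number was called lower after rescaling, against 2.01% of all genes. Without the 2 libraries near another group 4 were called lower and 1 higher, against 3.5% and 26.5% of all genes in that fit. *Txnip*, an inhibitor of glucose uptake, fell by 1.91 on the log2 scale (SE 0.43, adjusted p = 0.0155), mostly in *Lpin1*-/- liver, where it went from 181.0 to 417.8 RPKM to 16.9 to 36 RPKM, against 18.1 to 28.7 and 12.2 to 19.4 RPKM in *Lpin1*+/+ liver (interaction adjusted p = 0.0398). *Irs2* was not called (−1.10, adjusted p = 0.155). *Ccng2*, a cyclin of the FoxO program that was not on this list, went from 8.44 to 20.4 RPKM to 1.84 to 5.70 RPKM with no overlap (−1.53 ± 0.18, adjusted p = 0.000906), nearly the same in the 2 genotypes (−1.45 and −1.60). Of 20 other PPARα targets 5 were called lower without those 2 libraries and 2 on both scales with them, *Slc25a47*, a mitochondrial carrier of liver (−1.88 ± 0.25, adjusted p = 0.00152), and *Angptl4*, a fasting-induced inhibitor of lipoprotein lipase. *Angptl4* read 115.0, 107.0, and 97.7 RPKM in fasted and 41.1, 13.2, and 59.3 RPKM in refed *Lpin1*+/+ liver. In *Lpin1*-/- liver it read 225.3, 360.1, and 258.1 RPKM fasted and 96.1, 73.3, and 44.4 RPKM refed, and it fell by 1.85 (SE 0.31, adjusted p = 0.00426). *Angptl4* thus fell where its relative *Angptl8* rose, in both genotypes. *Pdk4* (−1.14, adjusted p = 0.0582) and *Fgf21* (0.02, adjusted p = 0.983) were not called, and *Fgf21* had changes of −1.54 in *Lpin1*+/+ and 1.59 in *Lpin1*-/- liver.

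The forkhead core TGTTTAC, another of the 5 motifs searched on both strands of the same 300 bases, was found at 10 of 83 genes called lower (12.05%), 22 of 1108 called higher (1.99%), 288 of 8752 tested (3.29%), and 1095 of 27025 promoters in all (4.05%). FoxO and FoxA factors of liver read the same letters. Of the other 3 motifs, the E-box CACGTG was found at 8 of 83 genes called lower (9.64%), 143 of 1108 called higher (12.9%), and 1039 of 8752 tested (11.9%). The cAMP response element TGACGTCA was found at 5 (6.02%), 30 (2.71%), and 310 (3.54%) of these, and the ER stress response element II, ATTGG and CCACG with 1 base between them, at 0, 1, and 8. Of the 10 genes 4 are neighboring copies of the *Cyp3a* family with nearly the same sequence, for which reads and promoters are not independent. The sites of 6 of the 10 genes, shown to compare their surroundings, have the core in capitals and 12 bases on each side.
*Txnip* (chr3:96557836-96557842): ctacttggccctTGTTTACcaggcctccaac
*Tmem140* (chr6:34863030-34863036): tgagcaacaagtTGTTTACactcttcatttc
*Tmem140* (chr6:34863141-34863147): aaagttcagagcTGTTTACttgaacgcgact
*Ypel3* (chr7:126776988-126776994): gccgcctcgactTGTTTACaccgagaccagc
*Cyp3a11* (chr5:145880046-145880052): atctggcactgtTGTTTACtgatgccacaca
*Btg1* (chr10:96616797-96616803): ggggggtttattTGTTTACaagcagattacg
*Cyp3a16* (chr5:145469907-145469913): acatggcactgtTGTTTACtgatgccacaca

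The *Cyp3a11* and *Cyp3a16* lines differ at few bases, and *Tmem140* held the core at 2 places. *Cyp3a11*, a major drug-metabolizing P450, went from 3199 to 6906 RPKM in fasted to 922.4 to 2889 RPKM in refed liver and fell by 1.11 on the log2 scale (SE 0.21, adjusted p = 0.00877), with the limit that the authors' counting could split reads between the copies. *Igfbp1* held no match of these letters in this window.

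Other stress and clock genes were called singly. Of all genes 12% were called higher and 0.982% lower, and 2.92% and 2.01% after rescaling. In the list of the integrated stress response, which ATF4 drives, 5 of 21 were called higher and 1 lower (median 0.15), and 2 higher and 2 lower after rescaling. Those that rose were the tRNA synthetase genes *Wars* (1.10 ± 0.16, adjusted p = 0.00194), *Nars* (1.06 ± 0.19, adjusted p = 0.00638), *Sars*, and *Cars*, and *Ddit3*, the CHOP gene (1.22 ± 0.27, adjusted p = 0.0139), whereas *Trib3* was called lower (−0.98). After rescaling *Ddit3* was not called (adjusted p = 0.0864), nor were *Sars* and *Cars* (adjusted p = 0.348 and 0.380). Of 21 clock genes *Per2* and *Tef* were called higher and *Nfil3* lower (median 0.12), and after rescaling *Tef* was not called (adjusted p = 0.0908). Calls made up 14.3% of the clock list, near the 13% of all genes. The clock list had 5 higher calls and 1 lower without the 2 libraries near another group (28.6%, near the 30% of all genes in that fit). *Per2*, a repressor of the clock, had 0.323 to 1.64 RPKM in fasted and 2.68 to 7.41 RPKM in refed liver and rose by 1.70 ± 0.20 (adjusted p = 0.000754). *Nfil3*, a repressor of clock output genes, went from 19.3 to 30.9 RPKM to 5.75 to 13.7 RPKM in *Lpin1*+/+ and from 113.6 to 139.6 RPKM to 12.2 to 35.3 RPKM in *Lpin1*-/- liver (−1.72 ± 0.31, adjusted p = 0.00679). *Per1* (adjusted p = 0.485) and *Dbp* (adjusted p = 0.126) were not called.

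Autophagy and lysosome genes had 2 of 30 called lower, *Gabarapl1* (−1.10 ± 0.23, adjusted p = 0.0122) and *Map1lc3b* (−0.66 ± 0.13, adjusted p = 0.00888), which both encode ATG8-type proteins of the autophagosome membrane, and 1 higher, *Tfeb*. After rescaling 3 were called lower and 0 higher, with *Tfeb* at an adjusted p of 0.0732, and without the 2 libraries near another group 4 were called higher and 3 lower. Of 22 immediate early genes 1 was called lower on both scales (*Gadd45b*, −1.92 ± 0.41, adjusted p = 0.0123) and 4 without the 2 libraries, and their median was −0.43, at 0.29 in *Lpin1*+/+ and −1.07 in *Lpin1*-/- liver. *Gadd45b* itself had −0.78 in *Lpin1*+/+ and −3.05 in *Lpin1*-/- liver (interaction adjusted p = 0.0619). *Mt1* fell together with *Mt2* (−1.96 ± 0.39, adjusted p = 0.00929) among 7 metallothionein and zinc genes, both also called after rescaling, and without the 2 libraries 2 of the 7 were called in each direction. *Cyp1a1*, a P450 induced by the aryl hydrocarbon receptor, had 0.152 to 0.467 RPKM in fasted and 1.05 to 4.07 RPKM in refed liver and rose by 1.38 ± 0.19 (adjusted p = 0.00165), 1 of 21 drug-metabolizing P450 genes called higher, with *Cyp3a11* called lower. After rescaling 1 was called higher and 2 lower. Calls as deposited made up 10% of autophagy and lysosome genes and 4.55% of immediate early genes, against 13% of all genes. For metallothionein and zinc genes the share was 28.6%, and for P450 genes 9.52%. Of all genes, 2.92% were called higher and 2.01% lower after rescaling, and 26.5% and 3.5% without the 2 libraries.

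In the lists of glycogen metabolism (18 tested) and of the growth hormone and IGF axis (12 tested), 1 gene was called in each direction. These calls made up 11.1% and 16.7% of the lists, against 13% of all genes. The genes were *Stbd1* and *Ppp1r3g* in the former and *Cish* and *Igfbp1* in the latter. After rescaling *Stbd1* (adjusted p = 0.0651) and *Cish* (adjusted p = 0.0921) were not called. Without the 2 libraries near another group 5 glycogen genes were called higher and 1 lower, and 3 and 1 genes of the IGF axis. These calls made up 33.3% of each list, near the 30% of all genes in that fit (26.5% higher and 3.5% lower). *Igf1* was not called (0.13, adjusted p = 0.603). Among 30 amino acid catabolism and 8 urea cycle genes 1 each was called higher, *Ddo* and *Nags* (3.33% and 12.5%, against 12% of all genes). *Ddo* changed by 0.20 in *Lpin1*+/+ and 1.58 in *Lpin1*-/- liver (interaction adjusted p = 0.0950). *Nags* changed by 0.16 and 1.14 (interaction adjusted p = 0.0619). Of 18 bile acid genes 1 was called lower (5.56%, against 0.982% of all genes), the sterol transporter gene *Abcg5* (−0.62 ± 0.17, adjusted p = 0.0317). After rescaling *Ddo* (adjusted p = 0.157) and *Nags* (adjusted p = 0.218) were not called, and 4 of the 18 bile acid genes were called lower, against 2.01% of all genes. Amino acid genes had 3 higher calls without the 2 libraries (10%), and bile acid genes 2 higher and 1 lower (16.7%), against 30% of all genes in that fit. No call was made among 20 acute phase and 18 cell cycle genes, but after rescaling 1 cell cycle gene was called lower, and without the 2 libraries 2 acute phase genes were called, 1 in each direction, and 2 cell cycle genes lower. None of the tested markers of endothelial cells, cholangiocytes, and erythroid cells was called on either scale or without the 2 libraries, whereas lymphocyte and neutrophil markers, with 0 calls on either scale, had the 5 and 2 lower calls given above without them. Of 11 stellate cell markers *Lrat* was called higher (1.08). Kupffer cell markers had a median of −0.78, at 0.14 in *Lpin1*+/+ and −1.58 in *Lpin1*-/- liver, and the part of these immune cell markers in the genes called lower was not tested.

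The 2 genotypes share no library in their own feeding contrasts, so each was set beside the other. All 1495 called genes had the same sign in both genotypes, since opposite changes add to the residual spread of the fit. Their median absolute log2 fold change was 0.54 in *Lpin1*+/+ and 0.91 in *Lpin1*-/- liver, and 76.9% had the larger change in *Lpin1*-/- liver. Of 198 genes called in *Lpin1*+/+ liver alone, 171 (86.4%) had the same sign in *Lpin1*-/- liver, and 128 of these had an unadjusted p under 0.05 there. Of 2382 genes called in *Lpin1*-/- liver alone, 1866 (78.3%) had the same sign in *Lpin1*+/+ liver, and 557 of these had an unadjusted p under 0.05. By direction, 1700 of the 2046 called higher but only 166 of the 336 called lower had the same sign. After rescaling, 1097 of 1736 genes called in *Lpin1*-/- liver (63.2%) and 65 of 76 called in *Lpin1*+/+ liver (85.5%) had the same sign in the other genotype. Over all 11507 genes 60.6% had the same sign, and after rescaling 54.4%. Across genes Pearson's r between the 2 changes was 0.12 on both scales, a description over genes, which are not independent replicates.

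**Figure D5:**
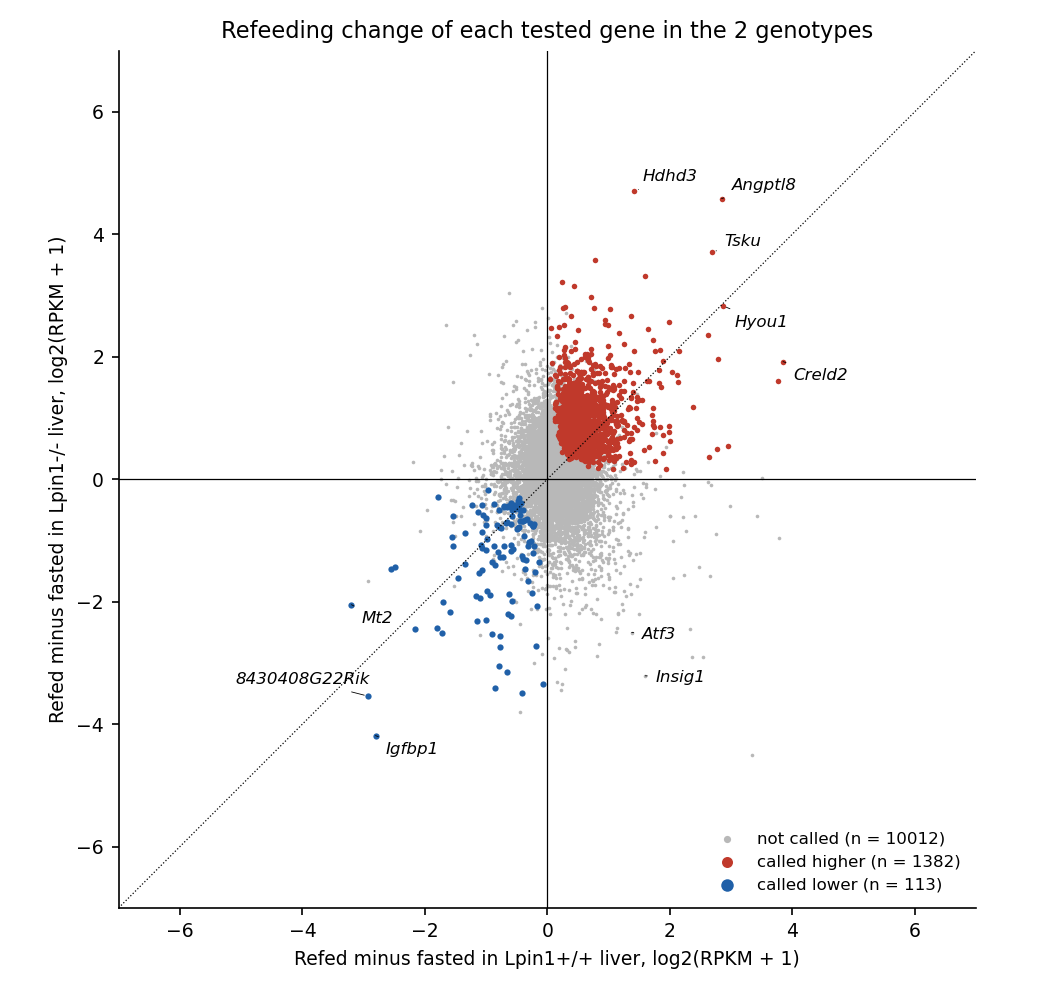
Log2 fold change of RPKM + 1 on refeeding in *Lpin1*+/+ (horizontal axis) and *Lpin1*-/- liver (vertical axis) for each of the 11507 tested genes, with genes called higher (1382, red) or lower (113, blue) in the common fit and the rest in gray. The dotted line marks equal change; *Hyou1* lies on it, *Hdhd3* and *Angptl8* above it, *Creld2* below it, and *Insig1* and *Atf3* in the quadrant of opposite changes.

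When a change in the same direction was required in each genotype, with the larger of the 2 limma p-values taken for each gene, 772 genes (6.71%) had an unadjusted p under 0.05, with 711 higher and 61 lower. After rescaling the number was 477 (4.15%), with 289 higher and 188 lower. Only *Hyou1* passed after adjustment over all genes, 1 of 11507 (0.00869%), and after rescaling 0 did. By this measure *Nop56* and *Gtf2f1* came next among genes that rose, and *Tcp11l2*, *Ccng2*, and *Rab30* were first among genes that fell. Without a test, 1043 genes (9.06%) had all 3 refed libraries on the same side of all 3 fasted libraries in both genotypes, 962 above and 81 below, and after rescaling 643 (5.6%) did. Of the 1495 called genes 871 (58.3%) were separated in this way. In the ER list 13 of 36 genes were, in the ribosome biogenesis list 21 of 48, and in the fatty acid oxidation list 0 of 27.

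The test of the genotype difference itself called 147 genes (1.28%), and 43 of the 1495 called genes were among them. Of 63 called genes named by rule, 13 lost the call in at least 1 of the 12 fits that left out 1 library. *Stbd1* lost it without refed *Lpin1*-/- replicate 2 (adjusted p = 0.0539). The others lost it in 4 to 10 of the 12 fits: *Psmc5*, *Abcg5*, *Ppp1r3g*, *Tfeb*, *Tef*, *Nags*, *Psmc2*, *Psmc4*, *Tpi1*, *Acaca*, *Cish*, and *Ddo*, with adjusted p-values of at most 0.117. The other 50, all of the ER, heat shock, ribosome biogenesis, and splicing genes named by rule among them, were called without each library.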

How the data were processed

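Liver mRNA of 12 mice, 3 in each of 4 groups taken from the sample labels, was sequenced with a stranded paired-end kit. Per the study's methods and processing notes, the authors aligned reads to GRCm38 with HISAT2 2.0.5, counted them per gene with HTSeq 0.6.0, tested counts with DESeq2 1.20.0, and deposited RPKM values; whether counting used strand is not given in the sources used here. Counts per gene were not used here, so limma 3.58.1 (R 4.3.3) with a variance trend was fitted to log2(RPKM + 1) in place of a count test, after genes whose mean over the 12 libraries was under 0.5 RPKM had been removed. Fold changes on this scale understate those of low genes. The common response was the feeding term of a fit with genotype as a covariate. Within-genotype changes and their difference came from a fit of the 4 groups. P-values were adjusted over all tested genes by the Benjamini-Hochberg method, and a gene with an adjusted p under 0.05 is called. All values in the report as "rose", "fell", or a signed number without a unit are log2 fold changes, refed over fasted.

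The study's methods give the read depth aimed at per sample, but the depth that each library reached is not given in the sources used here. The 3 mice of a group were separate animals. No pair of libraries held identical values. On simulated data with 11507 genes, the common fit recovered 62 of 89 genes changed by 1 and 108 of 111 changed by 2 on the log2 scale with 11 false calls, and 0 calls without changes. The simulated noise was independent between genes, with no deviation of whole libraries and no shift of scale. Changes were equal in both genotypes and were placed only in the more highly expressed genes. These counts therefore do not measure the error of the calls in the real libraries. The gene lists and the genes described were chosen with earlier results of these data known. Named were the 8 most changed non-overlapping genes in each direction, up to 3 called members of each list, a preset list, the 3 genes in each direction with the smallest p in both genotypes, and the 4 list members that differed most between genotypes. Some genes that the rule selects are not reported here. Other genes were chosen after their values were seen: *Xbp1*, *Pdia4*, *Sec23b*, *Syvn1*, *Derl3*, *Pdia6*, *Herpud1*, *Hspd1*, *Hsp90ab1*, *Myc*, *Pklr*, *Trib3*, *Sars*, *Cars*, *Clec4f*, *Lrat*, and the genes named for a promoter sequence. Promoters were matched by symbol to RefSeq (GRCm38.p6), and gene positions are those of GRCm38. Exon skipping tables with the authors' test results were not used. Alternatives were another pseudocount, other filters, rescaled libraries, a replicate block, no variance trend, the average of the within-genotype changes, a minimum fold change, and leaving out libraries. Figures were drawn with matplotlib 3.10.9 in Python 3.11.15.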

Additional observations from a re-analysis of the deposited data

Results flagged for a closer look

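The test of the difference between genotypes gave 8 of the genes named by rule a refeeding change that was not the same in *Lpin1*+/+ and *Lpin1*-/- liver (limma interaction term, log2 change in *Lpin1*-/- minus that in *Lpin1*+/+). *Hdhd3* had 3.28 (adjusted p = 0.0334), the only one of these 8 with the more positive change in *Lpin1*-/- liver. Among genes of SREBP-driven cholesterol metabolism, *Insig1* had −4.81 (adjusted p = 0.00332), *Msmo1* −4.23 (adjusted p = 0.0102), and *Cyp51* −3.66 (adjusted p = 0.0338), and none of these 3 was called in common. *Mvd* (−2.28, adjusted p = 0.0190) was called higher in common although most of the change was in *Lpin1*+/+ liver. *Atf3*, a stress-induced transcription factor gene, had −3.88 (adjusted p = 0.00664). *Ppp1r3g*, a glycogen-targeting subunit of protein phosphatase 1, had −3.07 (adjusted p = 0.0372), and *Txnip* −2.49 (adjusted p = 0.0398), and both were called lower in common. Groups of 3 libraries were not examined for single outlying values.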

How the results depend on the processing

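The common response of 1495 genes fell to 566 after rescaling and ranged from 621 to 3039 when 1 library was left out. It was 3392 without the 2 libraries nearest another group, an alternative chosen after seeing the data. Higher calls were 335 after rescaling, 570 to 2823 without 1 library, and 2996 without the 2. Lower calls were 231 after rescaling, 212 with the average of the within-genotype changes, 51 to 216 without 1 library, 396 without the 2, and 929 when these were left out and the rest rescaled. Changes kept in both genotypes were 1 gene, 0 with no filter on low values, 13 with a mean of at least 5 RPKM, 0 after rescaling, and 0 to 5 without 1 library. The genotype difference was called for 83 genes with no filter, 307 after rescaling, 30 to 176 without 1 library, and 86 without the 2. The cause was not tested. Deviations from the group means were correlated between libraries of different groups. With the same replicate number, r was −0.474 to 0.743 (median 0.0337), over 0.1 in 8 of 18 pairs. With different numbers, r was −0.700 to 0.628 (median −0.0491), over 0.1 in 13 of 36 pairs. Of the 12 libraries, 4 correlated best with their own number. A replicate block gave 1004 calls, 930 higher and 74 lower, and 81 genotype differences. Of 63 called genes named by rule, 47 were called in every alternative.

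Some uncalled genes changed sign. *Lpin1* was 0.29 without the 2 libraries, 0.21 when rescaled as well, and −0.66 to 0.17 without 1 library. *Cpt1a* was 0.055 without the 2 and −0.46 to 0.027 without 1. *Fgf21* was −0.17 after rescaling and −0.35 to 0.38 without 1 library. *Igf1* was −0.17 after rescaling and −0.14 without the 2 as well, where *Srebf1* was −0.093 and *Msmo1* −0.23.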
